A study of Mus musculus with 4 samples.

Results

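The genes described here are 10 genes of energy metabolism in striated muscle, chosen by name: *Ckm*, *Ckmt2*, *Pygm*, *Slc2a4*, *Eno3*, *Pgam2*, *Fabp3*, *Cpt1b*, *Mb* and *Ppargc1a*. They were chosen with earlier results of these data known. Each name matched 1 of the 24637 genes measured. Expression was measured by sequencing polyadenylated RNA of mouse embryonic stem cells (ESCs) on their way to cardiomyocytes, after 5 days in embryoid bodies (EBs) and 9 further days on gelatin. The study asked whether Taf4, a subunit of the general transcription factor TFIID, is needed for this differentiation. There were 2 WT libraries and 2 libraries labelled *Taf4a*-/-, from ESC lines derived from embryos of heterozygous crosses, and all 4 lines had been grown on fibroblast feeders before differentiation. The plates held a mixture of cells, so that fewer cells of a type and less RNA per cell cannot be told apart in any value below.

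Beating muscle turns over its ATP continuously, and it expresses its own forms of many enzymes of energy supply. Creatine kinases pass phosphate between ATP and creatine, and glycogen phosphorylase and the lower steps of glycolysis break down stored glucose. The mitochondria of the adult heart burn fatty acids as their main fuel. Myoglobin stores oxygen in the sarcoplasm, and the coactivator PGC-1α, the product of *Ppargc1a*, drives transcription of mitochondrial genes together with the estrogen-related receptors.

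Between 21732746 and 27733034 reads per library had been counted on genes, and 1 read was worth 0.877 to 1.11 of the normalized counts given below. Wherever 2 values of a genotype follow each other, they are those of replicates 1 and 2 in this order. *Taf4a* itself had 889 and 678 normalized counts in WT, against 1722 and 1799 in the libraries labelled *Taf4a*-/-. The gene-level count was thus higher in the latter (log2 fold change 1.18, SE 0.16, adjusted p = 0.00569, limma). By the methods the null allele lacks only some exons of the gene, and these were not counted apart. The gene-level count therefore cannot decide whether the labels hold, and they are kept here. The cells carried RNA of cardiac muscle and of other tissues in both genotypes. All 13 cardiomyocyte markers tested fell, from summed levels of 32422 to 33503 normalized counts in WT to 3237 to 3454. For 3 regulators of skeletal muscle little was counted: *Myod1* had 6.14 and 1.04 normalized counts in WT and 0 in both other libraries, *Myog* had at most 9.64 and *Myf5* at most 1.11. Of the 6 skeletal muscle markers tested, however, 2 were called higher in the libraries labelled *Taf4a*-/- and 0 lower. Of all genes tested, 11.3% were called higher and 17.3% lower. The comparison used limma on log2(normalized counts + 1) for the 16926 genes whose mean was at least 10, and a gene was called when its p-value after Benjamini-Hochberg adjustment was under 0.05. An exact permutation test of a gene cannot go below p = 0.33 with 2 libraries against 2, so limma's p-values lean on the spread that genes share.

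In the libraries labelled *Taf4a*-/-, *Mb*, *Ppargc1a*, *Pygm* and *Pgam2* fell. Of the 8 genes tested 0 rose, and at an unadjusted p-value under 0.05 the number that rose was also 0. The same number rose by voom, which called *Mb*, *Ppargc1a* and *Pygm* lower but not *Pgam2*. Among all genes tested, 17.3% were called lower and 11.3% higher. Of the other 6 genes, *Slc2a4*, *Fabp3*, *Eno3* and *Cpt1b* did not pass the test, and *Ckm* and *Ckmt2* were too low to be tested. The median log2 fold change was -1.19 over the 8 genes tested, against -0.01 over all genes tested. *Mb* passed the filter on low values through its WT libraries, since its mean in the libraries labelled *Taf4a*-/- was 4.47 normalized counts. Values of the genotypes did not overlap for 5 of the 8 genes with the lower values in the libraries labelled *Taf4a*-/-, which was so for 36.6% of all genes tested, and for 2 with the higher values there, which was so for 34.5% of all genes.

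**Figure D1:**
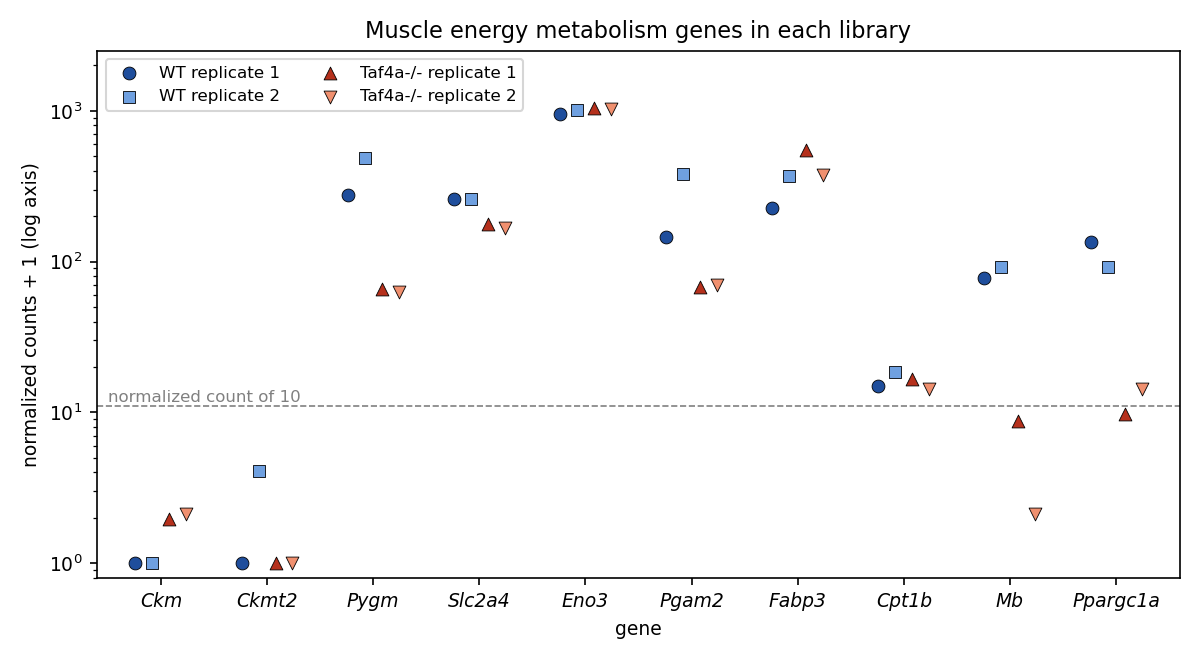
Normalized counts plus 1 (log axis) of the 10 genes in each of the 4 libraries, 1 point per library; the dashed line marks a normalized count of 10. *Pygm*, *Pgam2*, *Mb* and *Ppargc1a* sit apart by genotype, *Eno3* lies between 946 and 1038 normalized counts in every library, and *Ckm* and *Ckmt2* lie near 0.

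The sequences upstream of the 4 genes that fell, and of *Eno3*, which did not pass the test, are shown because promoters are where TFIID acts. They are RefSeq promoter windows (GRCm38.p6), each of which was found at 1 place in NCBIM37, the build of the counts, and they are printed 5′ to 3′ in the direction of the gene, without bases that lie in the gene's own annotated exons. Capitals mark the E-box letters CANNTG, bound by basic helix-loop-helix factors, and the motif of the MEF2 muscle factors. In NCBIM37 they lie at chr15:76853218-76853407 (- strand) for *Mb*, chr19:6384158-6384398 (+ strand) for *Pygm*, chr5:51958965-51959214 (- strand) for *Ppargc1a*, chr11:5703800-5704049 (- strand) for *Pgam2* and chr11:70470428-70470677 (+ strand) for *Eno3*.
Mb: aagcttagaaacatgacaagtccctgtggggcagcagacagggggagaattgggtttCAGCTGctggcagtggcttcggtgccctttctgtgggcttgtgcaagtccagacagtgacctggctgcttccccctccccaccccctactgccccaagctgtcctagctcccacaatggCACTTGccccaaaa
Pygm: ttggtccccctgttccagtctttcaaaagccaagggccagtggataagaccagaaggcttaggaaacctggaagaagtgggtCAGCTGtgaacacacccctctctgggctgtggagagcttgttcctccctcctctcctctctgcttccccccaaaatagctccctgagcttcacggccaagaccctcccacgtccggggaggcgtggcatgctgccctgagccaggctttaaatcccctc
Ppargc1a: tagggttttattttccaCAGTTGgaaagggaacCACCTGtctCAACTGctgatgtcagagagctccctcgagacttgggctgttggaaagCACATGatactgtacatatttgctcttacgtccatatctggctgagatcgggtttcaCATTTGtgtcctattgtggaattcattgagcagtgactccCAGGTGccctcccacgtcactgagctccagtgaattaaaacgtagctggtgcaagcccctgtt
Pgam2: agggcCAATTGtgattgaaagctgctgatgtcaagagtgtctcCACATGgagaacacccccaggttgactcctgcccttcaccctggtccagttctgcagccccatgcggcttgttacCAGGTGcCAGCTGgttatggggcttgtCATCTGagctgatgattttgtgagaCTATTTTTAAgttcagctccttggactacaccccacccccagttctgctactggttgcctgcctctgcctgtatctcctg
Eno3: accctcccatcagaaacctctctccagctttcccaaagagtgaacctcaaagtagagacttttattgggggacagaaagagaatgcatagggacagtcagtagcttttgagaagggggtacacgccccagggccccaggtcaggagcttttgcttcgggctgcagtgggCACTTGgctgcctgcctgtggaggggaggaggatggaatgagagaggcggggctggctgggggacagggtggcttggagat

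Windows were given for 8 of the 10 genes, and not for *Cpt1b* and *Slc2a4*; *Mb* has 3 annotated starts, and the one nearest its coding sequence is shown. Both strands were searched over the 250 bases before each start. CANNTG was found in all of these windows, from 1 place in *Ckm*, *Fabp3* and *Eno3* to 5 in *Pgam2* and 6 in *Ppargc1a*, and 66.2% of the 32851 mouse windows of this length hold it. The MEF2 motif was found in *Pgam2* alone, with its first base 80 bases before the start, and 2.92% of all windows hold it. TATAAA, which 12.4% of all windows hold, and AAGGTCA, the letters bound by estrogen-related receptors, which 4.08% hold, were in none of the windows of these genes. The printed stretches leave out 1 place of *Mb* and 1 of *Pygm*. CANNTG is its own reverse complement, so a match on both strands was counted as 1 place, and no match overlapped one of another motif. A match describes these letters only, and binding was not measured here.

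Among the enzymes that buffer ATP, *Ckm*, the cytosolic creatine kinase of muscle (chr7:19996443-20006932 in NCBIM37), had 0 reads in both WT libraries and 1 read in each of the libraries labelled *Taf4a*-/-. *Ckmt2*, the creatine kinase of muscle mitochondria, had 3 reads in WT replicate 2 and 0 in the other libraries. All of these values lie at or under a floor of 3 reads per library, so that no difference could be detected at this depth and no fold is given. Of the exon bases of *Ckm*, 31.9% are also annotated to a gene on the other strand, and the libraries do not mark strand. The forms of other tissues were counted well above that floor. *Ckb*, the brain form, had 1394 and 1752 normalized counts in WT, against 1176 and 990 in the libraries labelled *Taf4a*-/-, a log2 fold change of -0.53 with a 95% interval from -0.93 to -0.13 that did not pass the test (adjusted p = 0.0553, limma). *Ckmt1*, the mitochondrial form of non-muscle tissues, had 53.5 and 80.0 against 20.6 and 39.8 normalized counts and a log2 fold change of -1.16 (adjusted p = 0.0975, limma). Almost all creatine kinase reads of both genotypes were thus those of *Ckb* and *Ckmt1*.

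*Pygm* encodes the glycogen phosphorylase of muscle, which releases glucose units from glycogen (chr19:6384399-6398459). It had 274 and 483 normalized counts in WT, against 64.6 and 61.9 in the libraries labelled *Taf4a*-/-. Every WT value lay above both others, and the WT libraries differed 1.76-fold from each other. The fall was 5.68-fold, with a log2 fold change of -2.51 (SE 0.32, adjusted p = 0.00433, limma). *Pygb*, the brain form of the enzyme, fell much less, from 4035 and 5045 to 3003 and 3121 normalized counts (log2 fold change -0.56, SE 0.14, adjusted p = 0.0329, limma), and its call was lost without WT replicate 2 or 1 of the libraries labelled *Taf4a*-/- (adjusted p = 0.0614 to 0.171). Per kilobase of exon, *Pygm* made up 9.23% and 12.5% of the summed level of both forms in WT and 3.11% and 2.88% in the libraries labelled *Taf4a*-/-.

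*Slc2a4* encodes GLUT4, the glucose transporter that insulin brings to the cell surface in muscle and fat (chr11:69756045-69761690). Its WT values were almost the same, 257.8 and 257.7 normalized counts, and both exceeded the 175 and 167 of the libraries labelled *Taf4a*-/-. The log2 fold change of -0.59 had a 95% interval from -1.06 to -0.12 and missed the threshold over all genes (SE 0.19, adjusted p = 0.0656, limma), and with quantile normalization it was -0.29. *Slc2a4*, *Eno3* and *Pgam2* lie on chromosome 11, where the median log2 fold change of the 1424 genes tested was 0.09 and these genes were lower in replicate 2 than in replicate 1 of the libraries labelled *Taf4a*-/- by a median of 0.18 on the log2 scale. With each chromosome's median removed, *Slc2a4* passed the test at a log2 fold change of -0.68 (adjusted p = 0.0431, limma). *Slc2a1*, which encodes GLUT1, the transporter found in most cells, lay between 20005 and 22909 normalized counts in all libraries and the genotypes overlapped (log2 fold change 0.01, 95% interval from -0.34 to 0.36). The *Slc2a4* share of the summed level per kilobase was 1.18% and 1.23% in WT and 0.764% and 0.834% in the libraries labelled *Taf4a*-/-.

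The 2 glycolytic genes gave unlike results. *Pgam2* encodes the muscle form of phosphoglycerate mutase (chr11:5701643-5703736) and had 146 and 382 normalized counts in WT, against 66.6 and 68.6 in the libraries labelled *Taf4a*-/-. The genotypes did not overlap, but the WT libraries differed 2.63-fold from each other, more than WT replicate 1 differed from either of the other libraries. The log2 fold change was -1.79 (SE 0.46, adjusted p = 0.0335, limma), and without WT replicate 2 it was -1.10 and no longer passed (adjusted p = 0.0799, limma). *Eno3*, which encodes the muscle form of enolase, the enzyme of the next step (chr11:70470704-70476015), had 946 and 1014 against 1038 and 1027 normalized counts. Its log2 fold change was 0.08 with a 95% interval from -0.22 to 0.38 (SE 0.12, adjusted p = 0.670, limma), so that the interval of *Pgam2*, from -2.90 to -0.68, lay wholly below it. The widespread forms *Pgam1* and *Eno1* had log2 fold changes of -0.002 and 0.10 and overlapping values. Of the 50-base words of their transcripts, 91.9% of *Pgam1* and 72.2% of *Eno1* also occur elsewhere in the genome, which was so for no word of *Pgam2* or *Eno3*, so the levels of these forms cannot be set against each other.

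For fatty acids, *Fabp3* encodes the binding protein of heart and skeletal muscle that carries them through the cytosol (chr4:129985839-129992707). It had 226 and 367 normalized counts in WT, against 552 and 374 in the libraries labelled *Taf4a*-/-. The lowest of the latter lay just above the highest WT value, and neither direction passed the test (log2 fold change 0.66, SE 0.30, 95% interval from -0.07 to 1.39, adjusted p = 0.149, limma). Exact copies of 56.8% of its 50-base words lie at 1 other place in the genome, and 19.6% of its exon bases are annotated to other genes too, so its count is uncertain. *Fabp5*, the form of skin and many other cells, fell from 1150 and 2160 to 666 and 791 normalized counts (log2 fold change -1.12, SE 0.29, adjusted p = 0.0360, limma), with copies of 43.4% of its words elsewhere, and lost the call without *Taf4a*-/- replicate 1 (adjusted p = 0.0664) and without WT replicate 2 (adjusted p = 0.0708). *Cpt1b* encodes the muscle form of carnitine palmitoyltransferase 1, the gate through which long-chain fatty acids enter mitochondria (chr15:89246836-89256294). It had 14.0 and 17.7 against 15.7 and 13.3 normalized counts, overlapping values of a few reads in every library (log2 fold change -0.12, 95% interval from -1.19 to 0.95). The annotation gives 81.4% of its exon bases also to *Chkb* on the same strand, a gene with 746 to 871 normalized counts, so the level of *Cpt1b* cannot be told from these values. The liver form *Cpt1a* fell from 1059 and 1209 to 691 and 687 normalized counts (log2 fold change -0.72, SE 0.14, adjusted p = 0.0145, limma), a call lost without 1 or the other library labelled *Taf4a*-/- (adjusted p = 0.0700 and 0.0728).

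*Mb*, which encodes myoglobin (chr15:76845919-76881100), had the lowest log2 fold change of the 8 genes tested. Its interval, from -6.03 to -2.54, overlapped that of *Ppargc1a*. Without *Taf4a*-/- replicate 2 the log2 fold change of *Mb* was -3.25 against -3.51 for *Ppargc1a*. *Mb* is described by its values next. It had 76.3 and 90.4 normalized counts in WT, against 7.83 and 1.11 in the libraries labelled *Taf4a*-/-, where 8 and 1 reads were counted. The values lay far apart by genotype, and the lower 2 also differed from each other. Over all reads the level was 17.7-fold lower, with a 95% interval of 9.11 to 39.4 that covers counting error only. The log2 fold change was -4.28 (SE 0.72, adjusted p = 0.0102, limma), with a pseudocount of 10 it was -2.73, and without WT replicate 2 it was -4.16 and missed the threshold (adjusted p = 0.0796, limma). *Cygb*, which encodes the related cytoglobin of fibroblasts and other cells, also fell, from 385 and 310 to 120 and 102 normalized counts (log2 fold change -1.63, SE 0.23, adjusted p = 0.00581, limma). *Mb* made up 27.0% and 35.2% of the summed level of both genes per kilobase in WT, and 10.8% and 1.98% in the libraries labelled *Taf4a*-/-.

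*Ppargc1a* (chr5:51845488-51958964) had 134 and 91.4 normalized counts in WT, against 8.81 and 13.3 in the libraries labelled *Taf4a*-/-. The genotypes did not overlap, and here WT replicate 1 was the higher of the WT libraries. The fall was 9.45-fold, with a log2 fold change of -3.24 (SE 0.40, adjusted p = 0.00414, limma). *Ppargc1b*, which encodes the related coactivator PGC-1β, had 97.3 and 134 against 95.9 and 79.6 normalized counts and did not pass the test (log2 fold change -0.38, SE 0.29, 95% interval from -1.08 to 0.32). The interval of *Ppargc1a*, from -4.22 to -2.26, lay wholly below that of its partner. In WT the *Ppargc1a* share of the summed level per kilobase was 45.3% and 29.1%, and in the libraries labelled *Taf4a*-/- it was 5.23% and 9.10%.

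**Figure D2:**
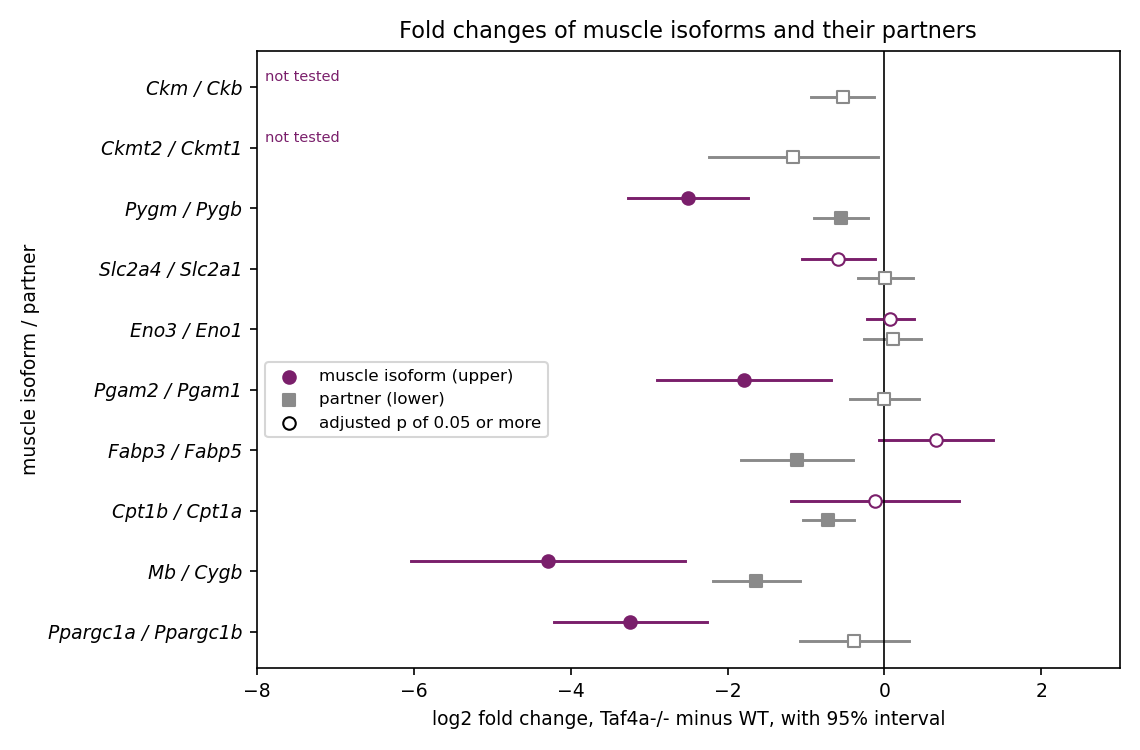
Log2 fold change (libraries labelled *Taf4a*-/- minus WT) with its 95% interval for each muscle gene (circle, upper) and its partner (square, lower), from limma; filled symbols had an adjusted p-value under 0.05. *Mb*, *Ppargc1a*, *Pygm* and *Pgam2* lie left of their partners, while *Fabp3* lies right of *Fabp5*.

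Of the 10 partners, *Fabp5*, *Cpt1a*, *Cygb* and *Pygb* fell and 0 rose, and the median log2 fold change was -0.55. This is 40% lower, against 17.3% lower and 11.3% higher of all genes tested, whose median was -0.01. With no variance trend only 1 partner was lower, and at an adjusted p-value under 0.01 also 1. Within a library, the ratio of a muscle gene to its partner hardly depends on the scaling of that library. On the log2 scale the ratio was lower in both libraries labelled *Taf4a*-/- than in both WT libraries for 5 of the 8 pairs with a tested muscle gene: *Pygm* to *Pygb*, *Slc2a4* to *Slc2a1*, *Pgam2* to *Pgam1*, *Mb* to *Cygb* and *Ppargc1a* to *Ppargc1b*. The mean log2 ratio moved from -0.04 to -2.90 for *Ppargc1a* and *Ppargc1b*, from -2.04 to -4.69 for *Mb* and *Cygb*, and from -3.63 to -5.57 for *Pygm* and *Pygb*. For *Fabp3* to *Fabp5* and *Cpt1b* to *Cpt1a* it was higher in both, moving from -2.45 to -0.67 and from -6.08 to -5.48, and for *Eno3* to *Eno1* the genotypes overlapped. The *Fabp3* pair rests on counts with copies elsewhere in the genome and the *Cpt1b* pair on the overlap of *Cpt1b* with *Chkb*, so neither ratio is a reliable level. The same holds for *Pgam2* to *Pgam1* and *Eno3* to *Eno1*. Of the 50-base words of these partners, 91.9% of *Pgam1* and 72.2% of *Eno1* lie elsewhere in the genome too. These ratios are values without a test, since 2 libraries were set against 2. Each ratio is built from the values of the genes given above and is not a separate result. The share of other gene pairs that separate the genotypes was not computed. Of all single genes tested, 36.6% separated them with the lower values in the libraries labelled *Taf4a*-/-.

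**Figure D3:**
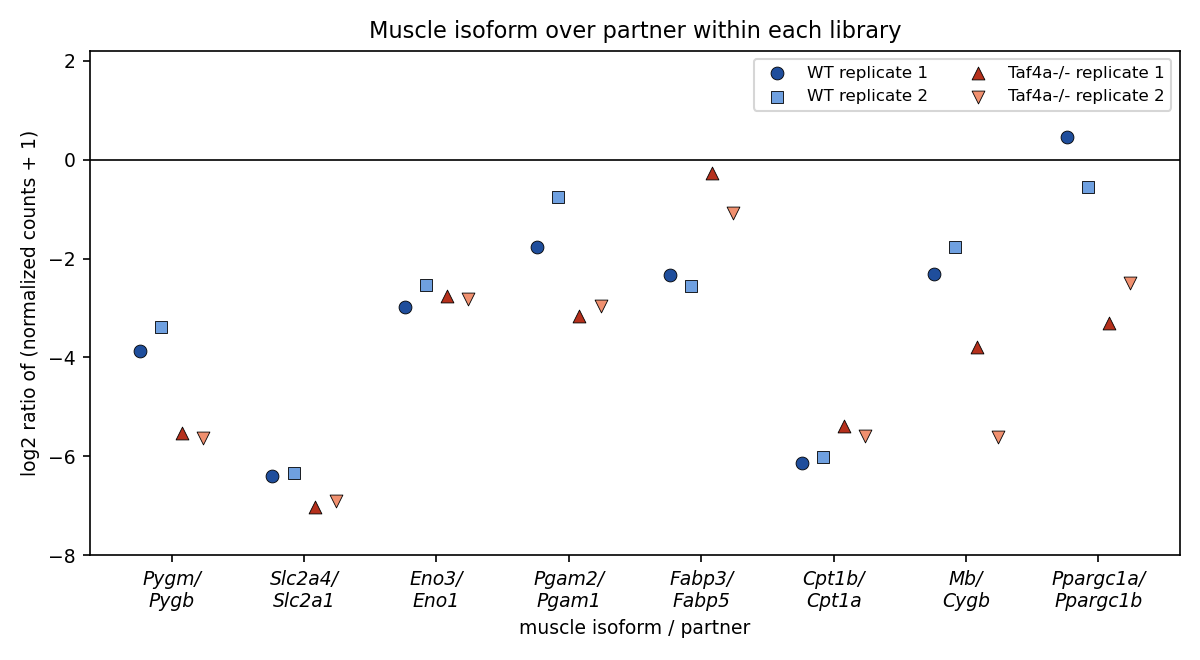
Log2 ratio of (normalized counts + 1) of each tested muscle gene to its partner, 1 point per library. The 4 points overlap by genotype for *Eno3* to *Eno1* alone. In 5 pairs the libraries labelled *Taf4a*-/- lie below WT and in 2 above, and the share for other gene pairs was not computed. Copies elsewhere in the genome limit *Pgam2* to *Pgam1*, *Eno3* to *Eno1* and *Fabp3* to *Fabp5*, and the overlap with *Chkb* limits *Cpt1b* to *Cpt1a*.

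Levels of different genes were compared per kilobase of annotated exon, as mean ± SD of the 2 libraries of a genotype. In WT the order was *Eno3* (580 ± 28.5 normalized counts per kilobase), *Fabp3* (360 ± 121), *Pgam2* (314 ± 199), *Pygm* (118 ± 45.9), *Slc2a4* (91.0 ± 0.0173), *Mb* (66.6 ± 7.98), *Ppargc1a* (17.0 ± 4.55) and *Cpt1b* (4.70 ± 0.763). The library values of *Fabp3* and *Pgam2* overlapped, and so did those of *Pygm* and *Slc2a4*. In the libraries labelled *Taf4a*-/- the order was *Eno3* (611 ± 4.27), *Fabp3* (563 ± 153), *Pgam2* (80.4 ± 1.69), *Slc2a4* (60.4 ± 2.05), *Pygm* (19.7 ± 0.587), *Cpt1b* (4.29 ± 0.501), *Mb* (3.57 ± 3.80) and *Ppargc1a* (1.66 ± 0.475). There *Eno3* overlapped *Fabp3*, and *Mb* overlapped both of its neighbours. *Pygm* thus had the lower mean beside *Slc2a4*, which it had not in WT, while the place of *Cpt1b* in either order is uncertain for its overlap with *Chkb*.

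The pathways around these genes were described with 7 lists, which hold 128 other genes, the partners included, of which 124 were tested. In all, 35 of these fell and 5 rose, and the median log2 fold change was -0.28. This is 28.2% lower and 4.03% higher, against 17.3% and 11.3% of all genes tested. The lists were chosen with earlier results of these data known, so these shares are a description and not an independent comparison. In the lists where 0 genes rose by limma, 0 also rose by voom, and at an unadjusted p-value under 0.05 there was 1 rise among the fatty acid genes and 0 in the others, the partners and the sarcomere genes included. In the list of glycogen metabolism, 6 of 18 genes tested fell and 1 rose, with a median of -0.37. Leaving out WT replicate 2 gave 3 lower genes, and leaving out WT replicate 1 gave 10. *Ppp1r3c*, which encodes a subunit that brings protein phosphatase 1 to glycogen, fell from 609 and 1619 to 111 and 135 normalized counts (log2 fold change -3.01, SE 0.44, adjusted p = 0.00677, limma). *Stbd1*, which encodes a glycogen-binding protein, fell from 780 and 1652 to 291 and 248 (log2 fold change -2.08). Both genes, like *Pygm*, were higher in WT replicate 2 than in WT replicate 1, as were all 18 genes tested in the list. *Phkb*, a subunit of the kinase that activates phosphorylase, had a log2 fold change of 0.43 that only just passed (adjusted p = 0.0447, limma) and did not pass without any one of the 4 libraries (adjusted p = 0.0622 to 0.313), without a filter, without a variance trend, with chromosome medians removed or with the replicate block.

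Of the 10 genes tested for phosphocreatine and adenylates, 4 fell and 0 rose, with a median log2 fold change of -0.74, and without WT replicate 2 only 1 was called lower. *Gatm*, which encodes the enzyme of the opening step of creatine synthesis, fell from 343 and 415 to 72.4 and 48.7 normalized counts (log2 fold change -2.65, SE 0.28, adjusted p = 0.00289, limma), and *Ampd3*, an AMP deaminase, had a log2 fold change of -1.75 and lost the call without WT replicate 2 (adjusted p = 0.0542). In the list of fatty acid uptake and oxidation, 9 of 29 genes fell and 0 rose, with a median of -0.17; 4 were called lower without 1 or the other library labelled *Taf4a*-/- and 5 without WT replicate 2. The largest falls were those of *Fabp4*, the fatty acid binding protein of adipocytes and macrophages, and *Cd36*, a fatty acid receptor of the cell surface, and neither is particular to muscle. *Fabp4* went from 49.97 and 66.5 normalized counts to 2 and 1 reads, a ratio of 36.9 with a counting interval of 12.3 to 182. Like *Mb*, it passed the filter on low values through its WT libraries, so that it could only be called lower. *Cd36* went from 583 and 659 to 62.7 and 49.8 normalized counts (log2 fold change -3.45, SE 0.23, adjusted p = 0.00102, limma).

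Glucose uptake and glycolysis gave 9 lower and 2 higher of 26 genes, with a median log2 fold change of -0.33. Without *Taf4a*-/- replicate 1 there were 4 lower and 0 higher, without *Taf4a*-/- replicate 2 there were 6 and 1, and without WT replicate 2 there were 4 and 2. *Slc2a12*, which encodes the transporter GLUT12, and *Eno2*, the enolase of neurons, had log2 fold changes of -1.52 (adjusted p = 0.0166, limma) and -1.50 (adjusted p = 0.0295, limma), the former not called without *Taf4a*-/- replicate 1 (0.0608) or WT replicate 2 (0.0670). *Gapdh* and *Ldhb* rose by 0.87 and 0.75 on the log2 scale, but 85.6% and 33.6% of their 50-base words lie elsewhere in the genome too, and *Gapdh* had only 143 to 269 normalized counts. *Gapdh* lost the call without WT replicate 2 or 1 of the libraries labelled *Taf4a*-/- (adjusted p = 0.0631 to 0.127), and *Ldhb* without *Taf4a*-/- replicate 1 (adjusted p = 0.0623). In the list around PGC-1, 4 of 22 genes fell and 2 rose, with a median of -0.11. These shares, 18.2% and 9.09%, are near those of all genes tested, and when a library was left out 1 to 6 genes were lower and 1 to 4 higher; 1 was lower without WT replicate 2, 2 without 1 or the other library labelled *Taf4a*-/-, and 6 without WT replicate 1. *Esrrg*, which encodes the estrogen-related receptor γ, a partner of PGC-1α in heart, fell from 278 and 198 to 21.5 and 48.7 normalized counts (log2 fold change -2.82, SE 0.44, adjusted p = 0.00808, limma), and without WT replicate 2 it missed the threshold (adjusted p = 0.0575). *Mef2c*, which encodes a muscle transcription factor, had a log2 fold change of -1.59 (adjusted p = 0.00398, limma). *Sirt1*, which encodes a deacetylase that acts on PGC-1α, and *Pprc1*, another coactivator of the family, rose by 1.43 (adjusted p = 0.00956, limma) and 0.73 (adjusted p = 0.0304, limma) on the log2 scale, and *Pprc1* lost the call without WT replicate 2 or 1 of the libraries labelled *Taf4a*-/- (adjusted p = 0.0589 to 0.112).

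In the list of muscle and widespread forms of mitochondrial proteins, 1 of 7 genes tested fell and 0 rose, with a median log2 fold change of -0.31; this is 14.3%, below the 17.3% of all genes. Without *Taf4a*-/- replicate 1 there was 1 rise, and without WT replicate 1 there were 2 falls. The gene that fell was *Cox6a2*, the heart and muscle form of a subunit of cytochrome c oxidase. It had 203 and 297 normalized counts in WT and 0 reads in both libraries labelled *Taf4a*-/-. Like *Mb*, *Cox6a2* passed the filter on low values through its WT libraries, so that it could only be called lower. Against the floor of 3 reads per library its level was at least 80.0-fold lower, and the list's median is the same with this bound in place of the fitted value. Of 12 genes of oxygen and iron handling, 2 fell and 0 rose, with a median of -0.25, near the 17.3% of all genes, and 3 rose without *Taf4a*-/- replicate 1. The falls were those of *Cygb* and *Vegfa* (log2 fold change -0.62, adjusted p = 0.0463, limma), of which *Vegfa* lost the call without WT replicate 2 or 1 of the libraries labelled *Taf4a*-/- (adjusted p = 0.0790 to 0.179). Without WT replicate 2 only 1 gene of the list fell.

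**Figure D4:**
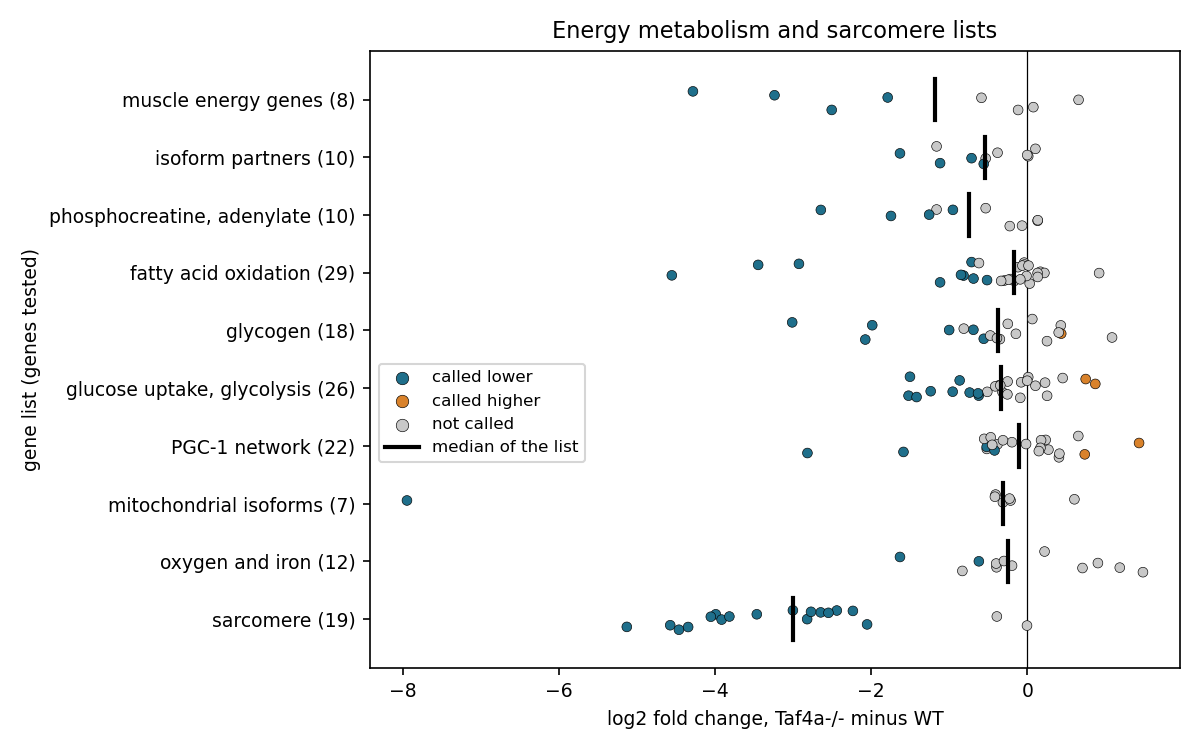
Log2 fold change (libraries labelled *Taf4a*-/- minus WT) of each gene tested in 10 lists, 1 point per gene, coloured by the limma call; black bars are medians. The sarcomere list has its median at -3.00, left of the muscle energy genes at -1.19 and of all 7 pathway lists.

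Beside these, 17 of the 19 sarcomere genes tested fell and 0 rose, with a median log2 fold change of -3.00. *Mb* and *Ppargc1a* had fold changes beyond that median, *Pygm* and *Pgam2* fell by less, and those of *Eno3*, *Fabp3*, *Slc2a4* and *Cpt1b* were between -0.59 and 0.66. Markers of other tissues were counted beside these. The shares of all genes tested were 17.3% lower and 11.3% higher. All 8 macrophage markers, 8 of 9 tested of liver and visceral endoderm and 7 of 8 of fibroblasts fell, with summed levels of 9395 to 11999.9 against 208 to 211 normalized counts, 69659.8 to 86949 against 1019 to 1097, and 429319 to 596621 against 48130.3 to 60341 respectively. Of the 9 adipocyte markers, 3 of 4 tested fell (summed levels 376 to 382 against 159 to 191), while *Adipoq*, *Plin1*, *Lep*, *Retn* and *Cfd* had at most 3 reads in every library. Of 6 smooth muscle markers 3 fell, with sums of 30350.0 to 54048 against 19847 to 20758. Of the skeletal muscle markers 2 of 6 tested rose and 0 fell, with sums of 657 to 764 against 952 to 1057. Of the neural markers 1 of 6 tested fell (722 to 877 against 757 to 766), and this 16.7% is near the share of all genes. Of the endothelial markers limma and voom called 0 of 6, of which 2 had an unadjusted p-value under 0.05 (7324 to 11125 against 5773 to 9689). Pluripotency markers rose in 7 of 9 cases, from summed levels of 2796 to 5426 normalized counts in WT, the higher in replicate 1, to 15635 to 17912. Among the markers called lower, *Pln*, *Alb*, *C1qa*, *C1qb*, *Cx3cr1*, *Fabp4* and *Cidec* passed the filter on low values through their WT libraries. The part of these cell types in the changes of the muscle energy genes was not tested.

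The genes whose pattern over the 4 libraries was nearest to the mean pattern of the 8 tested genes, by Euclidean distance of centred log2 values, were *Fbln1*, *Ptk2b*, *Col27a1*, *Pla2g7* and *Mgat4a*, at distances of 0.0289 to 0.107. Their log2 fold changes lay between -1.53 and -1.43, which follows from the choice by this pattern and is not a separate result. The mean pattern blends genes that fell with others that did not pass the test. The mean pattern they were set against stood at 0.55 and 0.92 in WT replicates 1 and 2 and at -0.59 and -0.89 in the libraries labelled *Taf4a*-/-.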

How the data were processed

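RNA was sequenced from 4 libraries, 2 WT and 2 labelled *Taf4a*-/-. Per the submitters' processing notes and the methods, the authors used CASAVA 1.8, mapped reads to mm9 (NCBIM37) with TopHat 1.3.3, counted them per Ensembl gene with HTSeq 0.5.3p1 and deposited counts divided by a DESeq size factor for each library, in other words normalized counts with decimal commas. The counting mode and the annotation release are not given in the sources used here; an overlapping gene can take or void reads, and a word with copies elsewhere can lose them. All 24637 identifiers were found in GENCODE M1. All values were whole multiples of 1 read within 0.001, which gave the reads; library totals are in the report, and intervals and floors from reads cover counting error only.

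Log2(normalized counts + 1) of genes with a mean of at least 10 was fitted with limma 3.58.1 (lmFit, eBayes with a variance trend) in R 4.3.3, with no covariate and with Benjamini-Hochberg adjustment over all genes tested. Fold changes on this scale understate those of low genes. The lines of a genotype are separate by the methods, and replicate numbers were taken as names. The script was tested on simulated reads with the same spread set for every gene, which checks the code and not the calls in these data. Copies of 50-base words were sought with blastn 2.17.0, and matplotlib 3.10.9 under Python 3.11.15 drew the figures. The genes named were the 10 genes, a partner for each, in each list the 2 largest falls and 2 largest rises among called genes that separate the genotypes in every library, and the 5 genes of nearest pattern with a mean of at least 100. The genes, partners and lists were chosen with earlier results of these data known. *Taf4a*, *Chkb* and the markers named were given as checks; of the listed genes, *Myf6* and *Sox1* were not found in the table.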

Additional observations from a re-analysis of the deposited data

How the results depend on the processing

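The alternatives were pseudocounts of 0.5 and 10, no filter, a mean of at least 50, equal library totals, quantile normalization, no variance trend, a block for the replicate number, chromosome medians removed, an adjusted p-value under 0.01, leaving out each library and, chosen after seeing the data, limma's voom on the recovered reads. Tests of counts with edgeR and DESeq2 had been planned and were not run; voom on the recovered reads is the only test of reads here.

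*Pygm* and *Ppargc1a* were called lower under all of these. At an adjusted p-value under 0.01 only these 2 genes were lower, and *Mb* (-4.28) and *Pgam2* (-1.79) missed it. *Pgam2* also missed 0.05 with no variance trend (-1.79), quantile normalization (-1.47) and voom (-1.71). With chromosome medians removed *Slc2a4* passed (-0.68) and the sign of *Eno3* (-0.016) and *Slc2a1* (-0.016) turned; with quantile normalization that of *Cpt1b* turned (0.11), and *Pgam1* was at 0.062, 0.057, 0.14 and 0.065 with chromosome medians removed, equal totals, quantile normalization and voom. *Mb* was not tested at a mean of at least 50, nor *Cpt1b*. *Fabp3* passed under 0 alternatives. Quantile normalization moved the median of all genes to 0.11 and the share of higher genes among all calls from 39.4% to 52.2%, and it raised the pathway genes called higher from 5 to 10. With no variance trend 1 partner and 18 pathway genes were lower and 3 higher, and at 0.01 these counts were 1, 15 and 1.

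Leaving out a library gave 2 to 4 of the 10 genes lower (2 without WT replicate 2), 1 to 5 partners lower (1 without *Taf4a*-/- replicate 1, 2 without *Taf4a*-/- replicate 2 or WT replicate 2), 16 to 44 pathway genes lower (16 without WT replicate 2, 20 and 22 without *Taf4a*-/- replicates 1 and 2) and 2 to 7 higher (2 without *Taf4a*-/- replicate 2, 3 without WT replicate 2). *Mb* ranged from -5.32 to -3.25, *Pgam2* from -2.48 to -1.10, *Cpt1b* from -0.28 to 0.037, *Slc2a1* from -0.087 to 0.11, *Eno1* from -0.075 to 0.28 and *Pgam1* from -0.19 to 0.19. A genotype left with 1 library is assumed to vary like the other. For the 28 other genes named, 361 of 418 values kept their side of the threshold and direction, 46 lost the call, 1 gained it and 10 turned in sign. The cause of these shifts was not tested.

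The replicate numbers were taken as names of lines, and deviations of same-numbered libraries correlated at 0.01. For the 4 genes tested on chromosome Y, however, replicate 2 lay below replicate 1 by the median of either genotype. This median difference on the log2 scale was -9.54 for WT and -7.25 for *Taf4a*-/-. The correlation therefore cannot decide whether equal numbers pair libraries. The cause of the difference on chromosome Y was not tested. With the replicate block 4 of the 10 genes, 4 partners and 32 pathway genes were lower and 4 pathway genes higher. Depth limits *Ckm*, *Ckmt2* and *Cpt1b*, and the overlap with *Chkb* limits *Cpt1b* further.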

Other observations

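The values of the genes given here were known when the genes were chosen. The 3 estrogen-related receptors, which are DNA-binding partners of the coactivator PGC-1α, differed in direction. *Esrrb*, which is also a gene of the pluripotency network, had 210 and 164 normalized counts in WT, against 1781 and 2431 in the libraries labelled *Taf4a*-/- (log2 fold change 3.48, SE 0.21, adjusted p = 0.000833, limma). *Esrrg* fell by 2.82 on the log2 scale, as described above. *Esrra*, the form found in most oxidative tissues, had 674 and 668 against 508 and 430 normalized counts and missed the threshold (log2 fold change -0.52, SE 0.16, adjusted p = 0.0509, limma).

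Beside *Cox6a2*, the muscle genes *Ppp1r3a*, which encodes a glycogen-targeting subunit of protein phosphatase 1, and *Cox8b*, which encodes another heart and muscle subunit of cytochrome c oxidase, had reads in WT alone. *Ppp1r3a* had 25 and 6 reads in WT and *Cox8b* had 5 and 15, and neither had a read in the libraries labelled *Taf4a*-/-. Both lay under the filter on low values and were not tested. The share of all genes with reads in 1 genotype only was not computed. *Ckm* went the other way, with 0 reads in WT and 1 read in each library labelled *Taf4a*-/-. *Cox7a1*, a muscle form of a further subunit, had 78.0 and 123 against 83.2 and 74.1 normalized counts, and the genotypes overlapped.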
